A study of Mus musculus with 6 samples.

Results

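The 2-cell-like state is a rare state of mouse embryonic stem cell cultures in which cells carry transcripts of the 2-cell embryo. It is switched on by the homeobox factor DUX, whose own gene is activated by the paired chromatin proteins DPPA2 and DPPA4, and it is held down by chromatin assembly factors, SUMO ligases and corepressor complexes. The 10 genes described here are activators of that state (Dux, Dppa2, Dppa4), repressors (Chaf1a, Chaf1b, Pias4, Zmym2) and further transcripts of the 2-cell embryo (Zfp352, Tcstv1, Tcstv3). They were taken by symbol from a table of 25239 genes. All 10 were found, and all 10 were among the 20461 genes with a p-value.

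The samples were E14 cells, a mouse embryonic stem cell line, grown without serum in N2B27 supplemented with LIF and 2i. The first group received siRNA against EHMT2, the H3K9 methyltransferase also called G9a, and the second received control siRNA. Each had 3 libraries of polyA RNA, from cells collected 3 days after transfection. Both groups came from the same parental line without other genetic change in the labels, and the siRNA sequences were not analysed here. The title of 1 EHMT2 siRNA library misspells its target, which its other labels give as EHMT2. Nothing in the labels says whether the 3 samples of a group were separate cultures, so the p-values measure the spread between these samples, which may be technical. By its title the study concerns the nucleolar granular component and repressive chromatin at nucleoli, and the comparison asks which transcripts change when Ehmt2 is reduced.

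The authors' deposited table gives for each gene a mean over the 6 libraries of counts scaled by size factor (here the mean normalized count), beside a fold change on the log2 scale and an unadjusted p from the program DESeq2. Fold changes are EHMT2 siRNA over control siRNA. The header does not name the numerator, and the sign was read from Ehmt2 itself, which stood at 34.7% of its control level (95% interval 29.4% to 41.0%), so Ehmt2 cannot check the labels here. A gene is said to have passed at a Benjamini-Hochberg adjusted p below 0.05, adjusted over all genes with a p-value. By that rule 10.3% of all genes passed, 5.45% higher and 4.82% lower. Embryonic stem cell genes were abundant, with mean normalized counts of 2908 to 122043 for 10 markers that include Pou5f1, Sox2, Nanog and Zfp42. None of the 10 passed in the DESeq2 comparison. At an unadjusted p under 0.05, 1 of them was higher and 1 lower, beside 10.2% of all genes higher and 9.54% lower.

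Size factors were recovered from genes that had 1 read over the 6 libraries together. They were 1.25, 0.952 and 0.952 for the EHMT2 siRNA libraries and 1.05, 1.01 and 0.845 for the control siRNA libraries. The total read count of a library is unknown. For a gene with a low mean, the deposited mean has enough digits to fix the whole number of reads in each library. This held for 7048 of 7048 genes with a mean of 35 or less, each with 1 solution within 2e-13 of the deposited mean. Reads per library are therefore given for Dux, Zfp352, Tcstv1 and Tcstv3, with libraries of a group in the order of size factors above. Which replicate number belongs to which size factor is unknown. For the other members, only the mean over all 6 libraries can be given.

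Across the members, 4 of 10 passed, all higher with EHMT2 siRNA, and none passed lower. At an unadjusted p under 0.05 the DESeq2 comparison gave 5 higher and 0 lower, beside 10.2% of all genes higher and 9.54% lower. The members that passed were all 3 of the further 2-cell transcripts and 1 of the 4 repressors, while none of the 3 activators passed. In these bulk samples, a larger number of cells in the 2-cell-like state and more RNA per cell cannot be told apart. The median log2 fold change of the 10 members, chosen with earlier results of these data known, was 0.29, beside 0.01 over all genes tested. The members fall into separate ranges of size, with log2 fold changes of 2.01 to 2.78 for the further 2-cell transcripts, 1.62 for Dux, and -0.13 to 0.34 for the other 6 genes.

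**Figure D1:**
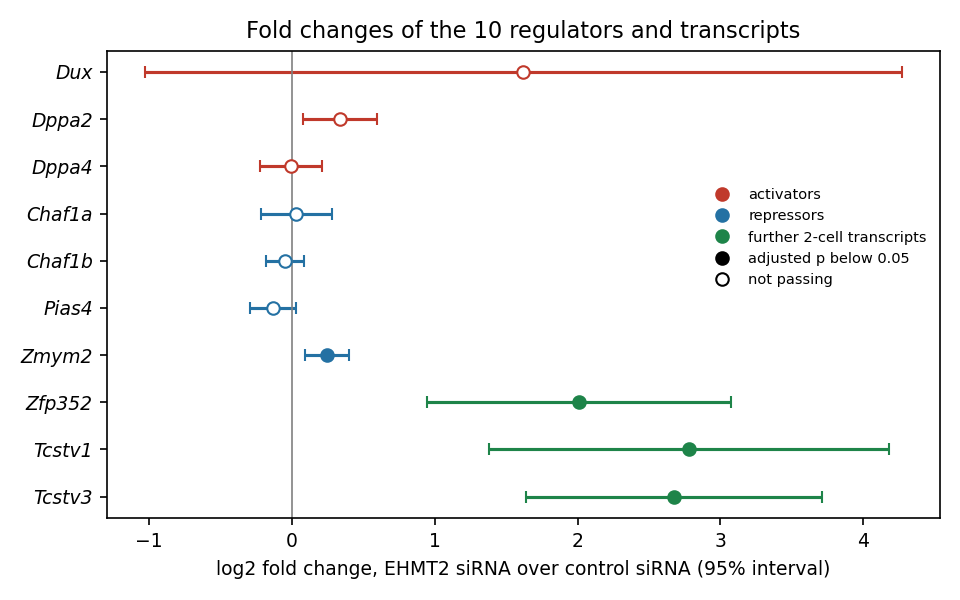
Log2 fold change of each member, EHMT2 siRNA over control siRNA, with its 95% interval; filled points passed at an adjusted p below 0.05 and open points did not. Zfp352, Tcstv1 and Tcstv3 lie at 2.01 to 2.78, the interval of Dux runs from -1.03 to 4.27, and the other genes lie between -0.13 and 0.34.

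Levels separated the members in the same way. Per kilobase of the longest annotated transcript, Chaf1b had the highest mean normalized count, 3456 per kb, followed by Dppa4 (2658 per kb), Pias4 (1449 per kb), Zmym2 (1241 per kb), Chaf1a (1227 per kb) and Dppa2 (802 per kb). Tcstv3 (39.9 per kb), Tcstv1 (12.5 per kb) and Zfp352 (10.9 per kb) lay far lower, and the median of 19896 genes was 139 per kb. These levels have no spread over libraries, and longest transcripts need not be the ones used, so neighbours such as Zmym2 and Chaf1a cannot be ordered. Dux, without a transcript of that symbol in the annotation used, had a mean normalized count of 2.85, the lowest of the 10.

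**Figure D2:**
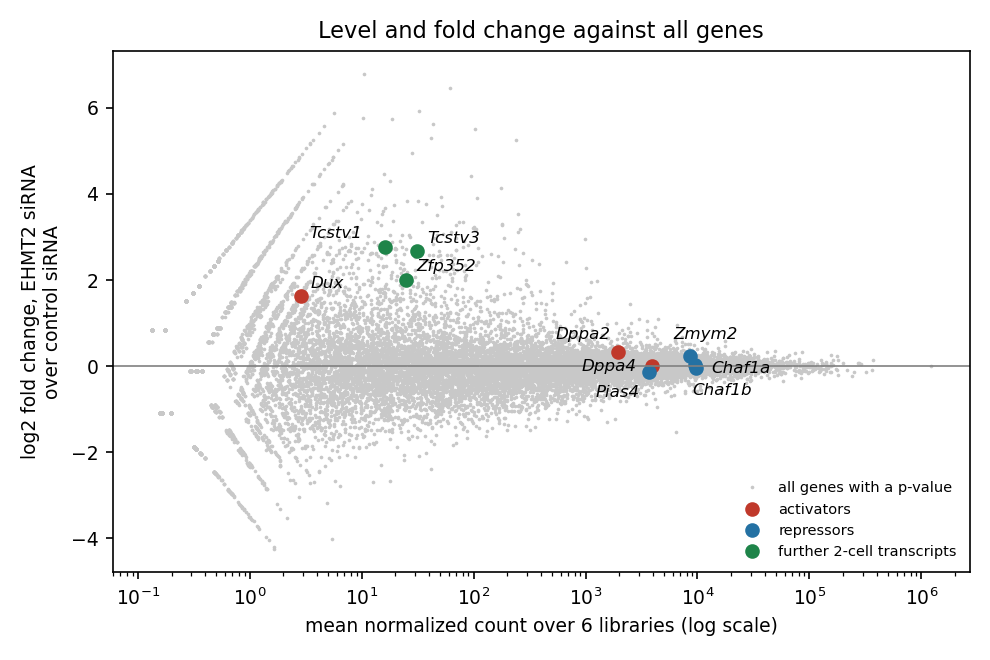
Mean normalized count over 6 libraries (log scale) against log2 fold change, EHMT2 siRNA over control siRNA, for all 20461 genes with a p-value (grey) and the 10 members (coloured by role). The 4 members with means of 2.85 to 31.1 lie at 1.62 to 2.78 on the log2 scale, and the 6 with means of 1962 to 9775 lie near 0.

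Dux encodes a double homeobox transcription factor that binds and activates genes and retroviral elements of the 2-cell embryo, and it lies in a tandem array of near-identical copies, so its reads may be split between copies. The EHMT2 siRNA libraries held 3, 4 and 6 reads of Dux, against 0, 3 and 1 reads in the control siRNA libraries. Divided by size factors, these were 2.40, 4.20 and 6.30 normalized reads with EHMT2 siRNA, against 0, 2.98 and 1.18 with control siRNA. The groups overlap, since the lowest EHMT2 siRNA library lay below the highest control library. A count of 0 allows up to 3 reads, or 2.87 normalized reads in that library, counting error only.

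The mean of Dux was 4.30 ± 1.95 normalized reads with EHMT2 siRNA and 1.39 ± 1.50 with control siRNA (SD, n = 3 each), and an exact two-sided permutation test over the 6 libraries gave p = 0.2. In the authors' deposited table Dux had a log2 fold change of 1.62 (95% interval -1.03 to 4.27), and the adjusted p of the DESeq2 comparison was 0.625. The libraries held 17 reads of Dux together, and the interval covers ratios of 0.491 to 19.3. The ratio of group means, 3.10, ran from 2.06 to 7.27 as each library was left out, the highest value being without the control library of size factor 1.01.

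Dppa2 and Dppa4 encode SAP-domain proteins that act as a pair upstream of Dux and keep bivalent promoters accessible in stem cells. Their genes are neighbours on chromosome 16 (GRCm38, Dppa4 at 48283735 to 48294292 and Dppa2 at 48310274 to 48319513). Dppa2 had a mean normalized count of 1962 and stood at 126% of its control level (95% interval 106% to 151%), a log2 fold change of 0.34 in the authors' deposited table that did not pass (adjusted p 0.0884). Dppa4, with a mean of 3931, stood at 99.6% of its control level (interval 85.7% to 116%, adjusted p 0.993). The interval of Dppa4 lies on both sides of its control level, and that of Dppa2 lies above it. A direct test of the difference between these neighbours was not possible without values per library. Of 2298 windows of 150 bases (the read length) in the longest Dppa2 transcript, 461 also occur in the transcripts of the predicted genes Gm8023 and Gm9788. Of 1330 such windows of Dppa4, 168 also occur in Gm14058, so reads of both genes may be shared with these copies.

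Other reported activators of the state were taken from a list of 12 genes. Of the 9 with a p-value, 4 rose, none fell (also at an unadjusted p under 0.05 in the DESeq2 comparison, where 5 were higher) and 5 did not pass. The share that passed was 44.4%, beside 10.3% of all genes. At the unadjusted threshold the share higher was 55.6%, beside 10.2% of all genes. The list median was 1.11, beside 0.01 over all genes, for a list chosen with earlier results of these data known. Zscan4d, Zscan4f and Zscan4c, copies of a SCAN and zinc finger gene tied to telomere lengthening that is itself a DUX target, rose by 3.27, 2.45 and 2.36 on the log2 scale in the authors' deposited table. They sit in a cluster of near-identical genes, and their reads may be shared, so the 4 activators that rose are not 4 independent results. Obox6, an oocyte-specific homeobox gene, rose by 1.11 (interval 0.73 to 1.49, adjusted p 7.68e-07).

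Dppa3, the maternal factor Stella that protects DNA methylation in the zygote, had a mean normalized count of 2993. It had a log2 fold change of 1.10 in the authors' deposited table and did not pass (interval 0.16 to 2.04, adjusted p 0.146). Obox3 held 1, 4 and 7 reads in the EHMT2 siRNA libraries, against 0, 2 and 0 in the control siRNA libraries, and did not pass (adjusted p 0.491). Obox1, Obox2 and Obox5 were listed at 0. The log2 fold changes of the other 3 were -0.00016 for Nelfa, a subunit of negative elongation factor, 0.11 for Top2a, a topoisomerase, and -0.13 for Tbx3, a T-box factor, none of which passed.

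Chaf1a and Chaf1b encode the large and middle subunits of chromatin assembly factor 1, which deposits histones H3 and H4 on newly replicated DNA, and depletion of either is known to raise the share of 2-cell-like cells. Chaf1a (chromosome 17, 56040416 to 56068026, GRCm38) stood at 102% of its control level (95% interval 86.1% to 121%, adjusted p 0.951). Chaf1b (chromosome 16, 93883900 to 93906115) stood at 96.7% (interval 88.2% to 106%, adjusted p 0.864). Neither passed, and both intervals include the control level. Rbbp4, which encodes their shared histone-binding partner and was chosen after its values were seen, had a log2 fold change of 0.09 and did not pass.

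Pias4 encodes a SUMO ligase known to restrain Dux in mouse stem cells (chromosome 10, 81153961 to 81167720). It stood at 91.5% of its control level (interval 81.8% to 102%), a log2 fold change of -0.13 in the authors' deposited table that did not pass (adjusted p 0.428). Zmym2 encodes a zinc finger protein that binds SUMO and works with the LSD1 and CoREST corepressor (chromosome 14, 56886529 to 56962358). It was the repressor that passed, at 119% of its control level (interval 107% to 132%, log2 fold change 0.25, adjusted p 0.0189). Among genes with mean normalized counts of 1000 to 10000, 5.77% rose and 5.71% fell.

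The value of Zmym2 depends on the treatment of base composition. Its longest transcript has a GC content of 39.2%, the lowest of the 9 members with a value, and the trend of fold changes on GC content fitted over the whole table stood at 0.10 there. After that trend was subtracted, Zmym2 stood at 0.14 on the log2 scale and did not pass (adjusted p 0.339). Only 52 of its 6825 windows of 150 bases occur in another gene, the related Zmym5.

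Other reported repressors were taken from a list of 45 genes. Of the 44 with a p-value, 3 rose, 1 fell and 40 did not pass, with a median log2 fold change of 0.05. The share that passed, 9.09%, was close to the 10.3% of all genes, so the counts do not set the repressors apart. At an unadjusted p under 0.05 the DESeq2 comparison gave 8 higher and 2 lower. These are 18.2% and 4.55%, beside 10.2% and 9.54% of all genes. Hdac2, the deacetylase of the CoREST and NuRD complexes, rose by 0.32 in the authors' deposited table (adjusted p 2.26e-07). Resf1, a partner of the H3K9 methyltransferase SETDB1, rose by 0.32 (adjusted p 2.09e-05). Zmym4, a relative of Zmym2, rose by 0.18 (adjusted p 0.0487), though not after the GC trend was subtracted (log2 fold change 0.13, adjusted p 0.255).

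Trim66, a chromatin reader of the TRIM family, was the 1 repressor lower with EHMT2 siRNA, at -0.80 on the log2 scale in the authors' deposited table (interval -1.35 to -0.25, adjusted p 0.0440). Its fall did not pass after the GC trend was subtracted (-0.76, adjusted p 0.0704). None of 6 SUMO pathway genes passed, with log2 fold changes of -0.02 to 0.13. None of 6 genes of the PRC1.6 complex passed either, from -0.17 (E2f6, adjusted p 0.0909) to 0.10. With 6 genes in each group and 10.3% of all genes passing, these counts do not set either group apart. Ncl, which encodes nucleolin, a nucleolar protein known to hold the Dux locus silent, stood at 0.14 and did not pass (adjusted p 0.126).

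Zfp352, Tcstv1 and Tcstv3 are transcripts of the 2-cell embryo that also mark 2-cell-like cells, and all 3 rose. Among genes with mean normalized counts of 10 to 50, where these 3 lie, 8.05% rose and 2.52% fell. Zfp352, Tcstv1 and Tcstv3 had control siRNA means of 9.71, 3.98 and 8.23, and entered that range only through their EHMT2 siRNA libraries. These shares are therefore not a matched background. In each of the 3 genes every EHMT2 siRNA library lay above every control siRNA library. The same was true of 17% of all 2678 genes with a mean of 5 to 35, a range that Tcstv1 likewise entered only through its EHMT2 siRNA libraries.

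Zfp352 encodes a zinc finger protein of the early embryo (chromosome 4, 90218820 to 90225687, GRCm38). The EHMT2 siRNA libraries held 30, 45 and 46 reads of it, against 12, 13 and 4 reads in the control siRNA libraries. In normalized reads these were 24.0, 47.3 and 48.3 with EHMT2 siRNA, against 11.5, 12.9 and 4.74 with control siRNA. The groups were apart, and the EHMT2 siRNA library of size factor 1.25 was the lowest of its group. The means were 39.9 ± 13.7 with EHMT2 siRNA and 9.71 ± 4.37 with control siRNA (SD, n = 3 each). In the authors' deposited table Zfp352 had a log2 fold change of 2.01 (interval 0.95 to 3.07), and the adjusted p of the DESeq2 comparison was 0.00384. All 2127 windows of 150 bases in its longest transcript were particular to Zfp352 among annotated transcripts.

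The start region of Zfp352 is printed because it is the only one of the 3 risen 2-cell transcripts with a promoter in the table used. It covers 250 bases before and 50 after the start given by RefSeq (GRCm38.p6), chr4:90218570-90218869, plus strand, and the capitals mark TAATCC, the core recognised by bicoid-class homeodomains.
Zfp352 promoter: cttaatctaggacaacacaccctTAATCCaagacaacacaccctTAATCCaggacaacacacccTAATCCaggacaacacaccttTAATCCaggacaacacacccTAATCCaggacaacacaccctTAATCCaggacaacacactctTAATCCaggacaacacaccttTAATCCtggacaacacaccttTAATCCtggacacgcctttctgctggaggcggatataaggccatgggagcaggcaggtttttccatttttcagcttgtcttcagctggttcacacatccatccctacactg
The motif stands 9 times on the plus strand, in a tandem repeat, with neighbouring matches 20 or 21 bases apart and the last 61 bases before the start. It was searched on both strands after the sequence had been read. Of 32851 promoter windows, 7.06% held at least 1 match and 1 window, this one, held as many as 9. The promoter windows of Chaf1a, Chaf1b and Zmym2 held no match. The recognition motif of mouse DUX was also searched on both strands. It was in 11 of the 32851 windows and in none of those of Zfp352, Chaf1a, Chaf1b and Zmym2. A match is a description of the letters, and binding was not measured.

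**Figure D3:**
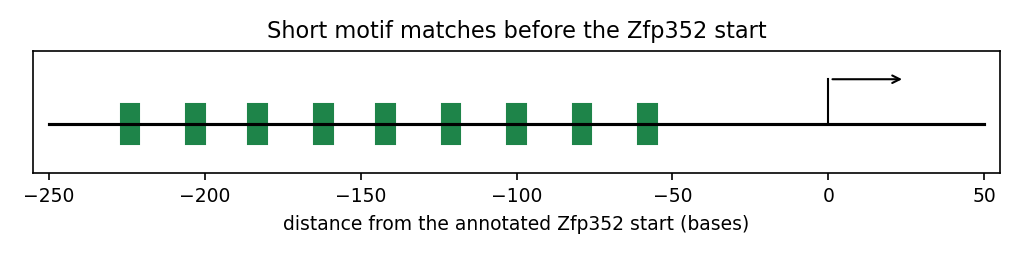
Positions of the 9 TAATCC matches (green) relative to the annotated start of Zfp352 (arrow), in bases. The matches are 20 or 21 bases apart, and the last begins 61 bases before the start.

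Tcstv1 and Tcstv3, named for their variable expression at the 2-cell stage, are related genes on chromosome 13 (GRCm38, 119893387 to 119894785 and 120316862 to 120318261). The EHMT2 siRNA libraries held 21, 40 and 24 reads of Tcstv1, against 5, 6 and 1 reads in the control siRNA libraries. In normalized reads these were 16.8, 42.0 and 25.2 with EHMT2 siRNA, against 4.78, 5.97 and 1.18 with control siRNA. The lowest EHMT2 siRNA library was above the highest control library. Tcstv1 averaged 28.0 ± 12.8 normalized reads with EHMT2 siRNA and 3.98 ± 2.49 with control siRNA (SD, n = 3 each), a log2 fold change of 2.78 in the authors' deposited table (interval 1.38 to 4.18, adjusted p 0.00217).

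Tcstv3 had 50, 57 and 59 reads in the EHMT2 siRNA libraries, against 14, 9 and 2 reads in the control siRNA libraries. In normalized reads these were 40.0, 59.9 and 62.0 with EHMT2 siRNA, against 13.4, 8.95 and 2.37 with control siRNA. The gap between the groups was the widest of the 4 low members. Tcstv3 averaged 54.0 ± 12.1 normalized reads with EHMT2 siRNA and 8.23 ± 5.54 with control siRNA (SD, n = 3 each), a log2 fold change of 2.67 in the authors' deposited table (interval 1.64 to 3.71, adjusted p 2.09e-05).

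An exact two-sided permutation test over the 6 libraries gave p = 0.1 for each of Zfp352, Tcstv1 and Tcstv3, the smallest value that 3 libraries against 3 allow. As each library was left out in turn, the ratio of group means stayed between 3.27 and 4.92 for Zfp352, between 5.21 and 9.40 for Tcstv1 and between 4.83 and 9.53 for Tcstv3. The control library of size factor 0.845, the lowest of the 6, was the lowest library for all 3 genes. It was lowest or tied for lowest in 26.6% of all 2678 genes with a mean of 5 to 35, and in 48.5% of the 165 of them that rose.

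**Figure D4:**
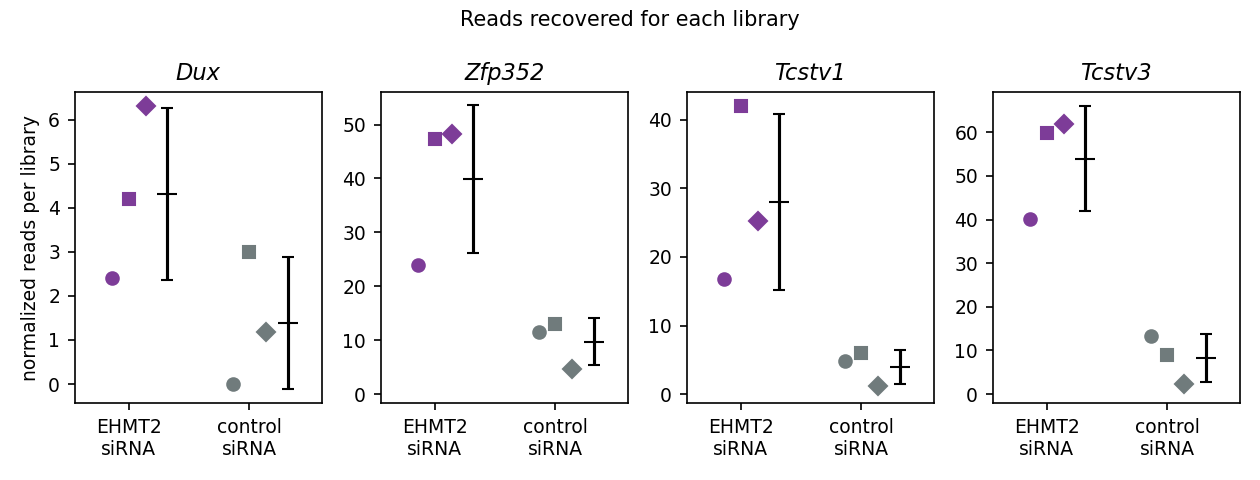
Normalized reads of Dux, Zfp352, Tcstv1 and Tcstv3 in the 3 EHMT2 siRNA and 3 control siRNA libraries, 1 point per library with marker shape by size factor within each group (circle highest, diamond lowest), and the mean with SD (black). The groups overlap for Dux and are apart for the other 3 genes.

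A stretch of 90 coding bases is printed to show how far reads can separate Tcstv1 and Tcstv3. It is the 90 bases with the most mismatches in the longest open reading frames of their GENCODE M21 transcripts, from base 368 to base 457 of each, with mismatches in capitals.
Tcstv1: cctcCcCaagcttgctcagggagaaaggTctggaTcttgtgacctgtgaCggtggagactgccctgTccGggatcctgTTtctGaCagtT
Tcstv3: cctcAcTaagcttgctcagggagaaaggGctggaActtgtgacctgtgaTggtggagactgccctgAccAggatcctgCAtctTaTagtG
There are 12 mismatches in this stretch and 27 over the whole alignment of 516 columns, with an identity of 93.6%. The longest identical run is 119 bases, which is shorter than a read. No window of 150 bases of the longest transcript of either gene occurs in a transcript of another annotated gene.

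Of 49 genes in a wider list of 2-cell transcripts, 43 were in the table, 4 of these were listed at 0, and 39 had a p-value. Of the 39, 18 rose, none fell (also at an unadjusted p under 0.05 in the DESeq2 comparison, where 23 were higher) and 21 did not pass. The share that passed was 46.2%, beside 10.3% of all genes. At the unadjusted threshold the share higher was 59.0%, beside 10.2% of all genes. The 18 include Zscan4 and Usp17l copies, whose reads may be shared, so they are not 18 independent results. The list median was 2.16, beside 0.01 over all genes. The list was chosen with earlier results of these data known, so this contrast is no independent support. The median also takes in genes with very few reads, such as Tdpoz1 with 3 and Rfpl4 with 1 over the 6 libraries. This list shares Zscan4c, Zscan4d and Zscan4f with the activator list. Pramel6, a PRAME family gene, rose by 2.46 in the authors' deposited table (interval 2.11 to 2.80, adjusted p 7.33e-42). The deubiquitinase copies Usp17la, Usp17lb, Usp17le and Usp17lc rose by 3.93, 3.71, 3.36 and 2.57, and reads may be shared between them. The genes of the list with mean normalized counts above the 330 of Pramel6 did not pass. On the log2 scale these were Ddit4l (-0.28), Btg2 (-0.11), Zfp345 (0.23), Slc16a9 (0.30), AU018091 (0.03), Eif1a (0.07) and Kpna2 (0.07).

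**Figure D5:**
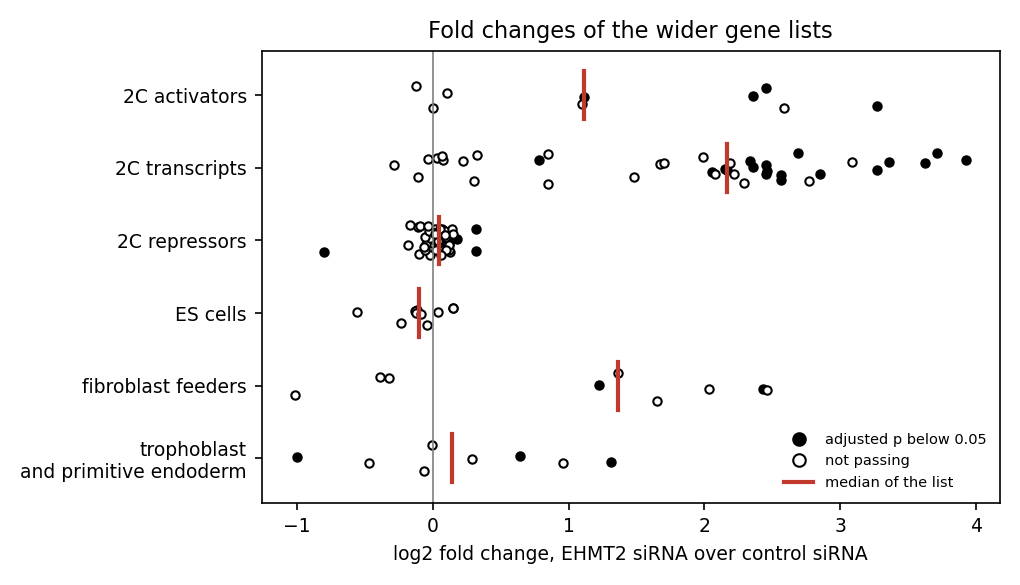
Log2 fold change, EHMT2 siRNA over control siRNA, of each tested gene in 6 lists (filled where it passed, red bar at the list median). Medians are 1.11 for the activators, 2.16 for the transcripts and 0.05 for the repressors of the 2-cell (2C) state, -0.10 for stem cell markers, 1.36 for fibroblast feeder markers, and 0.14 for trophoblast and primitive endoderm markers. The fibroblast median is the value of Acta2, with a mean normalized count of 4.78.

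Reads per library were recovered for 15 genes of this list with a mean of 5 to 35. In 8 of the 15 every EHMT2 siRNA library lay above every control library, beside 17% of all genes in that range, and in none did every one lie below. Control siRNA means were under 5 for Usp17ld (1.76), Tdpoz3 (3.94), Tdpoz4 (2.65), Abcb5 (3.45) and B020004J07Rik (1.27), all among the 8. They were also under 5 for Sp110 (4.65), Spz1 (1.92) and BC080695 (3.18), which were not among the 8. All of these genes entered the range only through their EHMT2 siRNA libraries. Their part of the count is therefore no independent support, and the 17% is not a matched background. The control library of size factor 0.845 was lowest or tied for lowest in 12 of the 15 (80.0%). This share was above the 26.6% of all 2678 genes of that range and the 48.5% of the 165 of them that rose. Tdpoz3, a BTB-domain gene of the early embryo chosen after its values were seen, held 22, 28 and 30 reads in the EHMT2 siRNA libraries, against 8, 3 and 1 in the control siRNA libraries.

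Markers of other cell types moved in part beside these rises, and those named were chosen after their values were seen. Of 10 fibroblast markers, 9 had a p-value, 2 rose (Col1a2 by 2.43 and Col5a2 by 1.23 on the log2 scale in the authors' deposited table), none fell and Dcn was listed at 0. The share of the 9 that passed was 22.2%, beside 10.3% of all genes. The list median, 1.36, was the value of Acta2, which held 29 reads over the 6 libraries. Col3a1, Lum and Postn also had low mean normalized counts, of 0.74, 1.93 and 5.44, and none of these genes passed. Members also stood lower without passing, with log2 fold changes of -1.01 for Thy1, -0.39 for Col1a1 and -0.33 for Pdgfrb, the most abundant of the list at a mean normalized count of 439. Summed over the 9, the level computed from each gene's deposited mean and fold change was 767 normalized counts with EHMT2 siRNA and 699 with control siRNA. At an unadjusted p under 0.05 the DESeq2 comparison gave 3 of the 9 higher and 1 lower, beside 10.2% and 9.54% of all genes. Of 8 trophoblast and primitive endoderm markers, Cdx2 (log2 fold change 1.31) and Pdgfra (0.64) rose, Gata4 fell to 49.9% of its control level and 5 did not pass. The list median was 0.14, and the summed level was 5677 normalized counts with EHMT2 siRNA and 4711 with control siRNA. Most of that sum was Tfap2c, with a mean normalized count of 3977. It did not pass in the DESeq2 comparison (log2 fold change 0.29, adjusted p 0.418). The part of these markers of other cell types in the results above was not tested.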

How the data were processed

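Per the submitters' processing notes, reads were handled with FastQC, Trimmomatic 0.36, STAR and DESeq2 on mm10 and GRCm38. Neither the annotation nor the read counter and its use of strand was given in the sources used here. A single table was deposited by the authors with, per the file headers, the signal of each gene (the mean over 6 libraries of counts divided by size factors), a log2 fold change and an unadjusted p-value.

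Adjusted p-values were computed over 20461 genes by the Benjamini-Hochberg method (statsmodels 0.14.6). Standard errors are those that fold change and p-value imply under a Wald test. The 6 lowest deposited means above 0 are genes with 1 read in 1 library, and the sign of their fold change gives the library's group. Whole reads were then solved from the mean of each gene with a mean of 35 or less. The ratio of group means from solved reads differed from the deposited log2 fold change by 0.01 at the median over 2676 genes with a mean of at least 5. Both steps were tested on simulated data.

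Transcript lengths and GC content come from the longest GENCODE M21 transcript of a symbol. Coordinates and promoters come from RefSeq GRCm38.p6, in which 9 of the 10 symbols were found, with promoters for 4. Named genes are all members, the whole activator list, up to 6 genes of each list by p-value with a mean of at least 10, Ehmt2, and markers. Further list genes were named after their values were seen. Members and lists were chosen with earlier results of these data known.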

Additional observations from a re-analysis of the deposited data

How the results depend on the processing

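Zfp352, Tcstv1 and Tcstv3 passed when adjusted over the 16543 genes forming the p-ordered block of the table, at a threshold of 0.01, and after subtraction of the overall median or of the GC trend. They also passed when adjusted over genes with a mean of at least 10, which is no further support, since their control siRNA means of 9.71, 3.98 and 8.23 lie under that filter. Adjusting over genes with a mean of at least 50 leaves these 3 genes out, and the members passing higher were then 1 and the 2-cell transcripts passing higher 10. At a threshold of 0.01 and after GC subtraction, 0 repressors were lower and 1 trophoblast or endoderm marker was higher. At 0.01, 726 genes rose and 601 fell over the whole table. Zmym2 did not pass at 0.01 or after GC subtraction. Dppa2 did not pass under any of these alternatives, with adjusted p from 0.0654 to 0.245. Dux has no GC value and lies below the filters at 10 and 50 and the ordered part of the table, whose lowest mean was 3.46, so it was left out of those. No paired analysis was possible because the deposited table holds 1 comparison and the replicate numbers of the recovered libraries are unknown.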
